A study of Mus musculus with 4 samples.

Results

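A set of 4 genes of glutathione metabolism was examined in mouse embryonic stem cells (mESCs) after knockdown of the homeobox gene *Rhox6*. They were *Gpx1*, *Gsta3*, *Gstt1* and *Ggt1*, taken by gene name as 4 of the 920 genes in the deposited table. *Gpx1* and *Gsta3* were higher in *Rhox6* shRNA mESCs, with mean levels 2.34 and 2.62 times those of *scramble* mESCs. *Gstt1* and *Ggt1* were lower, at 0.243 and 0.338 times the *scramble* mean. The genes were selected on the difference between these same libraries, because the table holds genes that the authors had already called differentially expressed. The values of the 4 genes are therefore a description, and no test of them is given.

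The cells were 46C mESCs infected with *Rhox6* shRNA lentivirus, and their controls were 46C mESCs infected with *scramble* lentivirus. Both were kept in medium with serum for 24 h, and 2 libraries were sequenced per group. 46C is a single mESC line with a fluorescent reporter at the *Sox1* locus. The culture medium in the methods contains LIF, which the sample labels do not mention, and the methods describe antibiotic selection after infection. The study used 2 hairpins against *Rhox6*, and which of them each library carried is not stated in the labels. No source says that the libraries of a group were separate cultures, so their spread may be technical. *Rhox6* is not one of the 920 genes, so it was not among those listed as differentially expressed between these libraries. Its level in them is not given, so the knockdown could not be checked here, and why it is missing cannot be told. By qRT-PCR, the study reports lower *Rhox6* transcript levels in mESCs infected with *Rhox6* shRNA lentivirus than in *scramble* controls. Whether those were the sequenced cultures is not stated.

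Glutathione is a tripeptide of glutamate, cysteine and glycine and the main soluble thiol of mammalian cells. Peroxidases such as GPX1 use its thiol to reduce hydrogen peroxide and organic peroxides. Transferases such as GSTA3 and GSTT1 join it to electrophilic compounds, and GGT1 on the outer cell surface breaks it down so that its amino acids can be taken up again. The deposited expression level of each gene is a normalized value in a unit that is not named, so levels are compared between libraries for a gene but not between genes. In bulk RNA, fewer cells of a type and less RNA per cell cannot be told apart.

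*Gpx1* (ENSMUSG00000063856) encodes the widespread cytosolic glutathione peroxidase. Its level was 499.19 and 501.81 in the *Rhox6* shRNA libraries, against 216.12 and 210.91 in the *scramble* libraries. Both knockdown libraries were above both controls, and the libraries of a group lay close together. The mean was 500.5 ± 1.85 in *Rhox6* shRNA cells and 214 ± 3.68 in *scramble* cells (SD, n = 2 each). Taking any knockdown library over any control gave a ratio of 2.31 to 2.38, whereas libraries of the same group were at most 1.02 times apart. The difference of log2(level + 1), *Rhox6* shRNA minus *scramble*, was 1.23 with a standard error of 0.039.

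*Gsta3* (ENSMUSG00000025934) encodes an alpha-class glutathione transferase, known in mouse liver for the detoxification of aflatoxin. Its level was 10.96 and 11.55 in the *Rhox6* shRNA libraries, against 4.30 in each of the *scramble* libraries. The groups did not overlap, and the control libraries were equal to the second decimal, as they were for 9 of the 920 genes. The mean was 11.3 ± 0.417 in *Rhox6* shRNA cells (SD, n = 2), and the difference of log2(level + 1) was 1.21 (standard error 0.10). *Gpx1* and *Gsta3* thus differed by nearly the same amount on this scale, although the raw ratio of the means was larger for *Gsta3*.

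*Gstt1* (ENSMUSG00000001663) encodes a theta-class glutathione transferase, an enzyme class known for its action on small halogenated compounds. Its level was 2.51 and 2.18 in the *Rhox6* shRNA libraries, against 9.93 and 9.38 in the *scramble* libraries. Both knockdown libraries were far below both controls. The mean was 2.35 ± 0.233 in *Rhox6* shRNA cells and 9.66 ± 0.389 in *scramble* cells (SD, n = 2 each). On the log2(level + 1) scale the difference was −1.67 (standard error 0.12), the largest in size of the 4 genes.

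*Ggt1* (ENSMUSG00000006345) encodes gamma-glutamyltransferase 1, which cleaves the gamma-glutamyl bond of extracellular glutathione. Its level was 3.6 and 4.39 in the *Rhox6* shRNA libraries, against 12.49 and 11.13 in the *scramble* libraries. The groups did not overlap here either, but the libraries of a group were further apart than for the other genes, by 1.22 times in *Rhox6* shRNA cells and 1.12 times in *scramble* cells. The mean was 4.0 ± 0.559 in *Rhox6* shRNA cells and 11.8 ± 0.962 in *scramble* cells (SD, n = 2 each). On the log2(level + 1) scale the difference was −1.36 (standard error 0.13). Separate groups were the rule in this table, since 98.4% of all listed genes had no overlap between the groups.

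**Figure D1:**
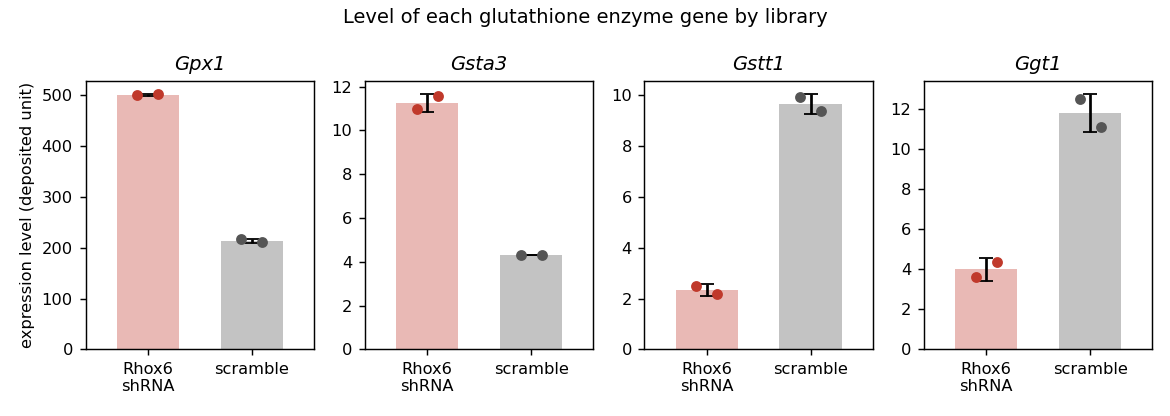
Deposited expression level (y axis, unit not named, a separate scale for each gene) of *Gpx1*, *Gsta3*, *Gstt1* and *Ggt1* in *Rhox6* shRNA and *scramble* mESCs. Points are libraries, bars are means and error bars are SDs (n = 2 each). The knockdown libraries lie above the controls for *Gpx1* and *Gsta3* and below them for *Gstt1* and *Ggt1*, with no overlap.

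Among the listed genes, the differences of *Gstt1* and *Ggt1* stood further out than those of *Gpx1* and *Gsta3*. By the size of the log2(level + 1) difference, *Gstt1* ranked 18 and *Ggt1* ranked 46 of the 417 genes with a lower mean log2 level in *Rhox6* shRNA cells. *Gpx1* ranked 153 and *Gsta3* ranked 160 of the 503 with a higher one. The ranks describe genes that had all been listed for their change, and adding 1 to each level shrinks the differences of low genes.

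Likeness of pattern over the 4 libraries was measured as the Euclidean distance between log2(level + 1) values centered on each gene's mean, over 825 other genes with a mean level of at least 1 in either group. *Pdgfc*, a growth factor gene, was nearest to *Gpx1* (distance 0.033), followed by *Gsta3* (0.053) and the kinase gene *Stk35* (0.058). Nearest to *Gsta3* were *Dcbld1* (0.037), the inhibitor of differentiation *Id4* (0.052) and *Gpx1* (0.053). The study's qRT-PCR did not bear out the sequencing change of *Id4*. *Cd164l2* (0.11), the oxygen-sensing prolyl hydroxylase gene *Egln3* (0.12) and *2610528J11Rik* (0.18) were nearest to *Gstt1*. For *Ggt1* they were *Rab25*, which encodes a small GTPase of epithelial cells (0.12), *Cpne7* (0.17) and *Coro2a* (0.18). The closeness of *Gpx1* and *Gsta3* depends on the pseudocount, since their group differences were 1.23 and 1.37 with 0.1 added in place of 1. With 2 libraries per group, this likeness mainly ranks genes by the size of their group difference.

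The wider glutathione pathway was read from a list of 67 gene symbols in 5 groups. The table held 13.4% of the list, against 3.59% of annotated protein-coding genes, and the 4 genes described above count in it by choice. In all, 9 of the 67 were listed. Besides the 4 genes described above, these were *Gstt2*, *Gstt3*, *Gstm3*, *Gstm6* and *Chac1*. In the limma fit on all 920 genes, with an adjusted p under 0.05, all 5 of them were called lower in *Rhox6* shRNA cells. Over all listed genes, 53.7% were called higher and 42.9% lower. The median difference of log2(level + 1) was −0.998 over the 9 genes and 0.564 over all 920. As each listed gene had been called by the authors on these libraries, these counts describe the table and give no independent support.

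*Gpx1* was the one listed gene of 8 peroxidases (12.5%). Of 27 transferases, 6 were listed (22.2%), with *Gsta3* higher and 5 lower. *Gstt2*, also of the theta class, was at 29.58 and 21.15 in the *Rhox6* shRNA libraries, against 76.94 and 71.79 in the *scramble* libraries, and its mean was 0.341 times the control mean. *Gstt3*, of the same class, was at 5.71 and 5.70, against 10.71 and 13.18. The 3 listed theta-class genes were thus lower, whereas *Gstt4* of that class was not listed and has no value. The mu-class genes *Gstm3* and *Gstm6* were lower too, at low levels, with ratios of means of 0.313 and 0.427. *Gstm3* was at 0.96 and 0.71 in *Rhox6* shRNA cells, against 2.92 and 2.41 in *scramble* cells. *Gstm6* was at 1.32 and 1.37, against 2.72 and 3.58.

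Of 12 genes for the breakdown of glutathione and the gamma-glutamyl cycle, *Ggt1* and *Chac1* were listed (16.7%), and both were lower. *Chac1* encodes an enzyme that degrades glutathione inside the cell, as opposed to the extracellular reaction of GGT1. It was at 2.23 and 2.09 in the *Rhox6* shRNA libraries, against 11.18 and 13.66 in the *scramble* libraries, and its mean was 0.174 times the control mean. None of 7 genes for glutathione synthesis and cystine supply was listed, among them *Gclc*, *Gclm*, *Gss* and *Slc7a11*. The same held for 13 genes of glutathione reduction, glutaredoxins, glyoxalases and NADPH supply, and for 18 genes of other antioxidant enzymes such as catalase, superoxide dismutases and peroxiredoxins. That a gene is not listed does not show that its level was equal in the groups.

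**Figure D2:**
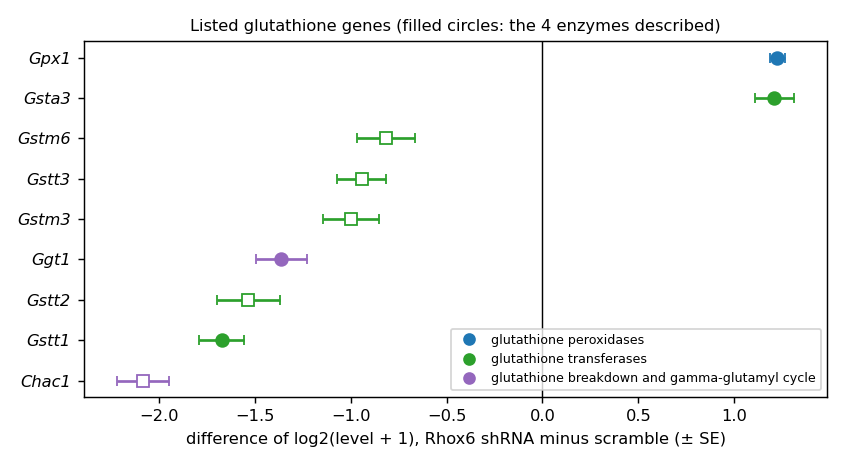
Difference of log2(level + 1), *Rhox6* shRNA minus *scramble* (x axis), with its standard error from limma (bars), for the 9 listed genes of the glutathione list. Filled circles mark *Gpx1*, *Gsta3*, *Ggt1* and *Gstt1*, and colors mark the groups. *Gpx1* and *Gsta3* lie to the right of 0, and the other 7 genes lie to the left.

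Lists that touch these genes by regulation or by biochemistry were read against the 3.59% of annotated protein-coding genes that were in the table. Of 17 targets of NRF2, the transcription factor of the antioxidant response, *Abcc1* was listed, a share of 5.88%. It encodes an exporter of glutathione conjugates and was at 9.57 and 8.88 in *Rhox6* shRNA cells, against 19.16 and 19.79 in *scramble* cells. Of 29 symbols for selenoprotein genes, 24 are in the annotation used, and the other 5 are not. *Gpx1* and the deiodinase gene *Dio3* were listed, 2 of the 24, and both were higher in *Rhox6* shRNA cells. With 1 and 2 listed genes, neither count sets its list apart. *Dio3* was at 1.45 and 1.34 in *Rhox6* shRNA cells, against 0.54 and 0.11 in *scramble* cells, where the libraries differed widely.

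**Figure D3:**
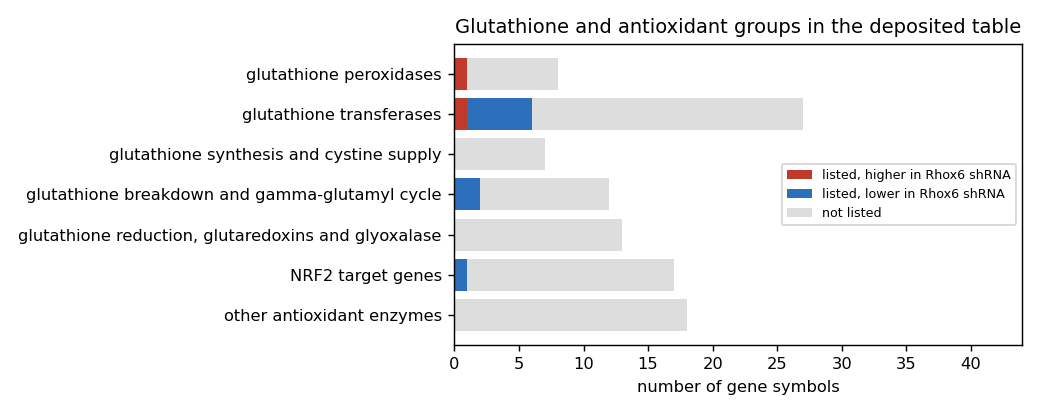
Number of gene symbols (x axis) in 7 glutathione and antioxidant groups (y axis) that were listed and higher, listed and lower, or not listed. Some genes stand in more than 1 group. The transferases hold 6 listed genes, and the groups for synthesis, reduction and other antioxidant enzymes hold none.

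*Ggt1* and *Gstt1* lie near each other on chromosome 10. In GENCODE M21, which uses the build GRCm38, *Ggt1* is at chr10:75561604-75586200 (+ strand) and *Gstt1* at chr10:75783813-75798584 (− strand), with their starts 237 kb apart. The annotation was joined by gene ID, as the processing notes name mm9. *Gstt3* starts 17.2 kb and *Gstt2* starts 38.8 kb from the start of *Gstt1*, on either side of it. Another listed gene of this stretch was *Derl3*, which encodes a derlin of the endoplasmic reticulum, with its start 94.8 kb away. It was at 10 and 16.24 in *Rhox6* shRNA cells, against 29.74 and 23.18 in *scramble* cells, with a difference of log2(level + 1) of −0.99 (standard error 0.24). All 5 listed genes from *Ggt1* to *Derl3* were lower in *Rhox6* shRNA cells, and 42.9% of all listed genes were called lower. *Ggt1* and *Gstt1* are among the 5 by choice.

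From the start of *Ggt1* to the end of *Derl3*, this stretch spans 334 kb and holds 12 protein-coding genes. Its ends were set after the listed genes were known. The 7 others, *Ggt5*, *Susd2*, *Cabin1*, *Ddt*, *Gm20441*, *Gstt4* and *Mif*, were not listed, and they lie between the listed genes. The listed share was 41.7% here, against 3.59% of the 22028 protein-coding genes of the annotation, and no test was made of this share. Among the 20 nearest annotated genes of each gene, 10 on either side, 3 were listed for *Gstt1*, 1 for *Ggt1* and 0 for *Gpx1* and for *Gsta3*. The neighbors are genes of all types, so the 3.59% of protein-coding genes is not the share to set beside them. The 1 for *Ggt1* is *Gstt3*, which is also counted for *Gstt1*. Counts of 0 or 1 in 20 set no gene apart.

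**Figure D4:**
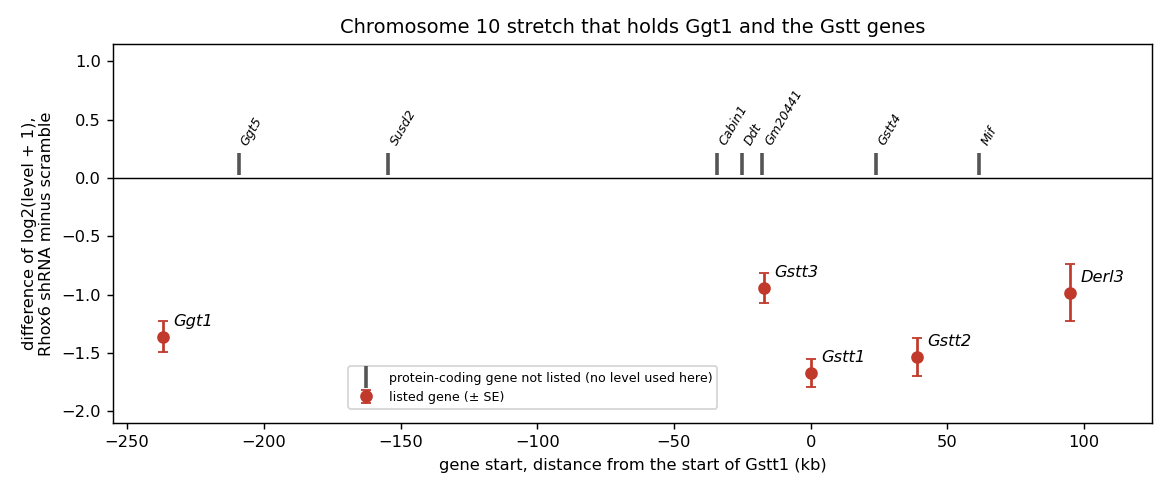
Difference of log2(level + 1), *Rhox6* shRNA minus *scramble*, with its standard error (y axis), for the listed protein-coding genes from *Ggt1* to *Derl3* on chromosome 10, by the distance of their start from that of *Gstt1* in kb (x axis). Grey ticks mark protein-coding genes that were not listed and have no value. The 5 listed genes lie between −0.94 and −1.67.

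The neighboring theta-class genes are paralogs, so reads could in principle be shared among them. Over 717 aligned bases, the coding sequences of *Gstt1* and *Gstt3* were 77.1% identical. No stretch of 50 bases from a *Gstt1* transcript occurred in a transcript of another gene, and the same was true of *Gpx1* and *Ggt1*. For *Gsta3* it was 0.273% of such stretches and for *Gstt2* 0.377%. For *Gstt3* it was 12.5%, and *Gm20441*, which starts next to it, was among the genes it shared them with. Only exact matches were counted, and how reads were assigned to these genes was not tested. The antisense gene *Gm28836* overlaps *Gsta3*, and no source says whether the counting used the strand.

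The places of the genes that were higher, in the same annotation, are chr9:108338903-108340343 for *Gpx1* and chr1:21240589-21265661 for *Gsta3*, both on the + strand. The *Gpx1* coding sequence has 201 codons before the stop, and 1 of them is an in-frame TGA, which is read as selenocysteine, the residue that carries the peroxidase reaction. *Gsta3*, *Gstt1* and *Ggt1* had 0 such codons in 221, 240 and 568 codons. The TGA is codon 47, shown here in capitals within coding bases 124 to 156, since it sets *Gpx1* apart from the other genes.
*Gpx1* codon 47: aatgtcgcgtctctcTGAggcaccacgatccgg

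Regions around RefSeq starts were read from the RefSeq promoter table on GRCm38.p6. It matched all 4 genes with 7 windows, each of 250 bases before and 50 bases after a RefSeq start. These starts are not the GENCODE gene starts given above. The windows of *Gstt1* and *Ggt1* lie wholly inside the GENCODE genes, and the *Gpx1* window runs across the GENCODE start. The motifs searched were the core of the antioxidant response element bound by NRF2, TGACNNNGC on both strands, and the homeodomain site TAATTA, which reads the same on both strands. The *Gpx1* window, on chromosome 9, held 3 matches to TAATTA, which start 245, 228 and 86 bases before the RefSeq start. The match nearest to that start lies inside the GENCODE gene. At least 1 match was present in 5.29% and at least 3 in 0.0487% of 32851 windows of the table. The *Gsta3* window, on chromosome 1, held none of these and 1 match to TGACNNNGC, 121 bases before its RefSeq start. That core was found in 12.4% of all windows. The GC content was 47.0% for *Gpx1* and 41.0% for *Gsta3*, against a median of 52.7%. The matches describe letters, as binding was not measured in these libraries. The windows of the genes that were higher are shown with the matches in capitals.
*Gpx1*, chr9:108338830-108339129, + strand: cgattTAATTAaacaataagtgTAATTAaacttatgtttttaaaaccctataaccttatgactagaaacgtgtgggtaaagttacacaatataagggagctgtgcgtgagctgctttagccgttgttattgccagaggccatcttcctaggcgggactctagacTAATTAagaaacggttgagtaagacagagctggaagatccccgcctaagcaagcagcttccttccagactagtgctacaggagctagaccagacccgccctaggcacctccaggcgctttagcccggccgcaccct
*Gsta3*, chr1:21240335-21240634, + strand: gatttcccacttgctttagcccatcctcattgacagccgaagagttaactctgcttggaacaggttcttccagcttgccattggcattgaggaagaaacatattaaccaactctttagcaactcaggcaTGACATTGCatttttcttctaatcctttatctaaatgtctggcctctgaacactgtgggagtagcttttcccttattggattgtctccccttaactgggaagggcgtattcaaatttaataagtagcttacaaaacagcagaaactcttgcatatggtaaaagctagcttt

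Of the genes that were lower, *Gstt1* had neither motif in its window. *Ggt1* had 4 windows, one for each RefSeq start, and 3 of them held 1 match to TGACNNNGC and none held TAATTA. The window of *Gstt1* and the window of *Ggt1* with the match furthest upstream, 83 bases before its RefSeq start, are shown to set them beside those above. Both lie on chromosome 10.
*Gstt1*, chr10:75797682-75797981, − strand: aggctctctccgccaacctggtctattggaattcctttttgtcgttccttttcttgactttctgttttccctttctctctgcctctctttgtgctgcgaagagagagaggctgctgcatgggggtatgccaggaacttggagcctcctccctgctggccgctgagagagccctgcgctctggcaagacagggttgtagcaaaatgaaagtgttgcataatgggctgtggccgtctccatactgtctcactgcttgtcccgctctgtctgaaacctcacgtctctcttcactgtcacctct
*Ggt1*, chr10:75571310-75571609, + strand: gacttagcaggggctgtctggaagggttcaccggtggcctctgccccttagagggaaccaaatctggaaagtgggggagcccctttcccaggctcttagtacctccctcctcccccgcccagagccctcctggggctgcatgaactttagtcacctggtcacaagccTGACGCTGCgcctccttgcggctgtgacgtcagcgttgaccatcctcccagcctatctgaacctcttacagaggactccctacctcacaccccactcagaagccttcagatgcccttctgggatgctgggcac

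Marker lists of cell types were read in the same way. As the table holds only called genes, a marker appears only if it was called different between the groups. The lists therefore cannot check the labelled cell type. Of 10 mESC markers, *Nanog* and *Klf4* were listed, at 314.24 and 331.47 and at 39.57 and 40.95 in *Rhox6* shRNA cells, against 125.72 and 126.54 and 18.28 and 16.51 in *scramble* cells. Both were called higher, the direction of *Gpx1* and *Gsta3*. The study's qRT-PCR of its sequencing candidates bore out the change of most, but not that of *Nanog*. Its separate qRT-PCR after culture without LIF did find *Nanog* higher in *Rhox6* shRNA mESCs. None of 8 fibroblast markers was listed. Of 8 primitive endoderm markers, *Cubn*, *Dab2* and *Gata6* were listed, all 3 were called lower and none was at 0 in a library. Their ratios of means were 0.165, 0.258 and 0.375, the direction of *Gstt1* and *Ggt1*. Of 6 neuroectoderm markers, *Ncam1*, *Sox1* and *Pax6* were listed and all 3 were called higher, the direction of *Gpx1* and *Gsta3*. Their ratios of means were 3.10, 3.26 and 6.97. In the *scramble* libraries *Sox1* was at only 0.48 and 0.6, and *Pax6* at 0.21 and 0.44. Over all listed genes, 53.7% were called higher and 42.9% lower, so that a listed marker was called is no result about the markers. The part of these cell types in the results was not tested.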

How the data were processed

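RNA of 2 *Rhox6* shRNA and 2 *scramble* samples was sequenced. The authors deposited a normalized signal per gene and library, called the level here, with 2 decimals and in a unit that is not named, for genes they had called differentially expressed. Depth is unknown without counts. Bowtie 0.12.2 and mm9 are named, without their role, in the submitters' processing notes, and the counter is not given in the sources used here. The table's columns of fold changes and p-values and its group means were not used. Levels were taken to log2(level + 1) and fitted with limma 3.58.1 in R 4.3.3 (variance trend, Benjamini-Hochberg adjustment over 920 genes), and the fit was checked on simulated data. A two-sided exact permutation test of these groups cannot give a p under 0.333. The members and lists were chosen with earlier results of these data known. Genes were named if they were members, in the lists, among the 3 nearest in pattern, or among the 10 nearest annotated genes on either side. GENCODE M21 held 919 of the 920 gene IDs. Other pseudocounts, a filter on low levels, scaling, no variance trend, the replicate number as a block and leaving out each library were tried.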

Additional observations from a re-analysis of the deposited data

How the results depend on the processing

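Each of the 4 genes kept its direction in all 32 alternative values, which is no sign of stability, as their groups do not overlap. Library sums over the listed genes were 9586 to 11973 as deposited. With the libraries scaled to equal sums, the median log2 difference over the listed genes was 0.448, against 0.564, and the log2 difference was 0.92 for *Gpx1*, 0.94 for *Gsta3*, −1.92 for *Gstt1* and −1.63 for *Ggt1*. This scaling rests on genes selected for their change. With a pseudocount of 0.1 or 0.5 in place of 1, the difference was 1.37 or 1.29 for *Gsta3* and −2.0 or −1.84 for *Gstt1*. For *Ggt1* it was −1.54 with 0.1. Leaving out each library in turn gave 1.21 to 1.24 for *Gpx1*, 1.17 to 1.24 for *Gsta3*, −1.74 to −1.6 for *Gstt1* and −1.48 to −1.25 for *Ggt1*. With 2 libraries per group, these shifts are set by the gap between them, and the block cannot move a difference.

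Of the glutathione list, the 5 listed genes besides these 4 were called lower under every alternative tried. With the replicate number as a block, 896 of the 920 genes were called, against 889 without it. Deviations of same-numbered libraries had a correlation of −0.045, so no shared shift of these libraries was seen. This value cannot show whether they were prepared as pairs. The limits are the missing depth, the unnamed unit, the 2 libraries per group and a table of called genes only, from which no share of all expressed genes can be given.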
